A study of Rattus norvegicus with 69 samples.

Results

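Nrf2 target and thiol redox genes were followed in the blood of rats that inhaled laser printer emissions. The set was named gene by gene as Nfe2l2, Keap1, Nqo1, Gclm, Gclc, Txn1, Txnrd1, Srxn1, Gpx1 and Tkt, and a gene counted as measured where a probe set of the array was annotated to that symbol alone. This held for 9 of the 10 genes, among 14557 genes with such a probe set in all. Srxn1 had no probe set of its own and was not analysed here. Tkt had 2 such probe sets, of which the one with the higher mean was used, and the other genes had 1 each. All 9 passed the filter on low variance, and no probe set of the 9 shared its values with another set.

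Gene expression was measured in whole blood of male Sprague-Dawley rats that were 9 weeks old when bought. The rats inhaled either the printer-emitted particles (PEPs) and gases of laser printer B1 or room air passed through a high efficiency particulate (HEPA) filter, for 5 h a day over at most 21 days. On each of days 1, 5, 9 and 13 there were 5 exposed and 5 filtered air arrays. On day 17 there were 5 exposed and 4 filtered air arrays, and on day 21 there were 6 of each. A further 4 exposed and 4 filtered air arrays of day 21 came from rats that carried an implanted telemetry transmitter. All groups, controls included, shared strain, sex and the age at purchase, each rat had a chamber of its own during exposure, and the labels name no genetic change. The labels number the arrays within a group without naming the animal. A p-value therefore sets a difference against the spread between arrays within groups, pooled over all 14 groups unless said otherwise. The labels also say that the exposure was carried out more than once, without saying which array belongs to which run. No effect of a run could therefore be fitted.

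Nrf2, encoded by Nfe2l2, is a transcription factor that Keap1 holds in the cytoplasm and marks for degradation. Electrophiles and oxidants modify cysteines of Keap1, Nrf2 then accumulates, and with a small Maf partner it binds the antioxidant response element of genes that make glutathione, reduce thioredoxin and supply NADPH. In blood these genes work in several cell types. Red cells and reticulocytes depend on glutathione and its peroxidase to detoxify hydrogen peroxide, and monocytes and neutrophils use the pentose phosphate pathway for the NADPH of their oxidative burst.

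The proximal promoters of Gclm, Gpx1 and Nqo1 are shown because these are the 3 genes that passed a test in exposed rats below. The sequences are from RefSeq on build GRCr8, cover 250 bases before to 50 bases after the start of the gene, and run 5′ to 3′ on the strand of the gene. Gclm lies at chr2:213031885-213032184 on the plus strand, Gpx1 at chr8:117905212-117905511 on the plus strand, and Nqo1 at chr19:52220218-52220517 on the minus strand. Capitals mark a match to the core of the antioxidant response element, TGACNNNGC on either strand.
Gclm: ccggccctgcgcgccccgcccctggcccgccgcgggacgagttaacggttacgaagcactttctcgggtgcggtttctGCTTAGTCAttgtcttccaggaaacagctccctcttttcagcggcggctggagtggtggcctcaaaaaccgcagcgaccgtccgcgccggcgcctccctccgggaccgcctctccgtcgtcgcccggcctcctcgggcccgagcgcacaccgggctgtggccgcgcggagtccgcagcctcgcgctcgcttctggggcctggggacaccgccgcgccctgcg
Gpx1: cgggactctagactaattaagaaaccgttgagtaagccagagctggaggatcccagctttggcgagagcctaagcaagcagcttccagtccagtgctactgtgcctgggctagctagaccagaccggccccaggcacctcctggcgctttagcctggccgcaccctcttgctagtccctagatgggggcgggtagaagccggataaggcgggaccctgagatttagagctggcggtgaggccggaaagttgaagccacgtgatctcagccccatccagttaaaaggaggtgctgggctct
Nqo1: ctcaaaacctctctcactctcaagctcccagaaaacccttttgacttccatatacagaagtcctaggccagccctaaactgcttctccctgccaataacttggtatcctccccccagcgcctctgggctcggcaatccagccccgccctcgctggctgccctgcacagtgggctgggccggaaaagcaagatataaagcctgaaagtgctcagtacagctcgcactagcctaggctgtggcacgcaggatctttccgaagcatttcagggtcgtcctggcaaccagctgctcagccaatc

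The core was found in 3 of the 11 windows that the table holds for the 10 genes, with 2 start sites for Txnrd1. In Gclm it read TGACTAAGC on the minus strand of the window, with its leftmost base at position -172 from the start of the gene. The window of Nfe2l2 held TGACGCCGC at position 39 on its plus strand, and that of the second start of Txnrd1 held TGACAAAGC at position -78 on its minus strand. In Nfe2l2 and Txnrd1 the positions count from start sites that lie inside the gene as annotated, not at its outer end. None of the 3 matches overlapped the AP-1 core TGANTCA. Over all 33469 promoter windows of the same length, 4038 held the core (12.1%). The windows of Gpx1, Nqo1, Gclc, Txn1, Tkt, Keap1, Srxn1 and the first start of Txnrd1 did not have these letters, which says nothing about elements outside them. The window of Srxn1 held 2 matches to the AP-1 core. Looser forms of the antioxidant response element were not searched.

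Median log2 intensity lay between 2.44 and 2.78 per array, and the lower quartile, used here as a measure of background, lay between 1.40 and 1.80. No 2 arrays were alike beyond r = 0.974. The sample was checked against 96 blood cell markers in 7 lists, of which 72 were measured and 71 were above the lower quartile on all 69 arrays, the exception being the neutrophil gene Ltf. In the linear model 4 arrays had a weight under 0.5. They were exposed day 1 replicate 5 (0.452), exposed day 5 replicate 1 (0.286), filtered air day 1 replicate 2 (0.229) and filtered air day 13 replicate 1 (0.246), and their lower quartiles were 1.74 to 1.80.

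Levels are given as log2 intensities, which rank the groups for a gene but do not compare 1 gene with another. For Nfe2l2, exposed rats averaged 6.86, 6.80, 7.20, 7.03, 7.49 and 7.23 on days 1, 5, 9, 13, 17 and 21, and filtered air rats averaged 6.85, 7.23, 6.94, 7.16, 7.26 and 7.31. The SD within groups was 0.36, and no group differed from its neighbour in the order of levels by more than the spread of that pair. One array lay apart, since filtered air day 1 replicate 2 was at 5.36, and the other 4 arrays of its group were at 7.19 to 7.29. Keap1, the inhibitor of Nrf2, averaged 5.94, 6.07, 5.99, 5.96, 6.06 and 6.01 in exposed rats and 6.03, 6.26, 5.85, 5.88, 6.45 and 6.19 in filtered air rats (SD 0.24). The exposed groups of Keap1 stayed within a narrow band, whereas the filtered air groups held both its highest and its lowest mean.

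Nqo1, a quinone reductase and a classical Nrf2 target, averaged 3.86, 3.92, 3.82, 3.90, 3.91 and 3.82 in exposed rats over the 6 days. In filtered air rats it averaged 3.97, 4.09, 3.45, 4.06, 4.10 and 4.03 (SD 0.40). Exposed means of Nqo1 differed by less than their spread, and the filtered air mean was low on day 9. Rats varied widely in this gene, with single arrays between 3.06 and 4.56 in the groups without an implant.

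Gclm and Gclc encode the modifier and the catalytic subunit of glutamate-cysteine ligase, which carries out the rate-limiting step of glutathione synthesis. Gclm averaged 10.66, 10.47, 10.33, 10.35, 10.06 and 9.70 on days 1 to 21 in exposed rats, and 10.68, 10.56, 10.42, 10.22, 10.13 and 9.91 in filtered air rats (SD 0.25). Both arms thus had their highest Gclm on day 1 and their lowest on day 21. Gclc averaged 5.95, 6.0, 6.26, 6.03, 6.32 and 6.02 in exposed rats and 6.35, 5.94, 6.11, 6.26, 6.58 and 6.13 in filtered air rats (SD 0.39), with no order by day. Gpx1, the glutathione peroxidase of the cytosol, averaged 10.58, 10.37, 10.12, 9.95, 9.89 and 9.77 in exposed rats and 10.54, 10.40, 10.10, 10, 9.92 and 10.01 in filtered air rats (SD 0.24). It too was highest on day 1 in both arms, and it was lowest on day 21 in exposed and on day 17 in filtered air rats.

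Txn1 encodes thioredoxin, which reduces protein disulfides, and Txnrd1 the cytosolic reductase that recharges it with NADPH. Txn1 averaged 10.50, 10.39, 10.25, 10.23, 10.05 and 10.03 in exposed rats and 10.58, 10.37, 10.57, 10.38, 9.81 and 9.88 in filtered air rats (SD 0.24). In filtered air its level was high up to day 13 and low on days 17 and 21. Txnrd1 averaged 5.14, 5.33, 5.33, 5.42, 5.76 and 5.61 in exposed rats and 5.02, 5.54, 5.19, 5.21, 5.51 and 5.87 in filtered air rats (SD 0.42, the widest of the 9 genes). Tkt, the transketolase of the pentose phosphate pathway, averaged 7.46, 7.45, 7.36, 7.49, 7.60 and 7.38 in exposed rats and 7.40, 7.57, 7.52, 7.46, 7.63 and 7.65 in filtered air rats (SD 0.21, the narrowest). In the order of all 14 groups, a step between neighbours exceeded the spread of the pair in 1 of 13 steps for Keap1, in 1 of 13 for Nqo1, and in none for the other 7 genes.

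**Figure D1:**
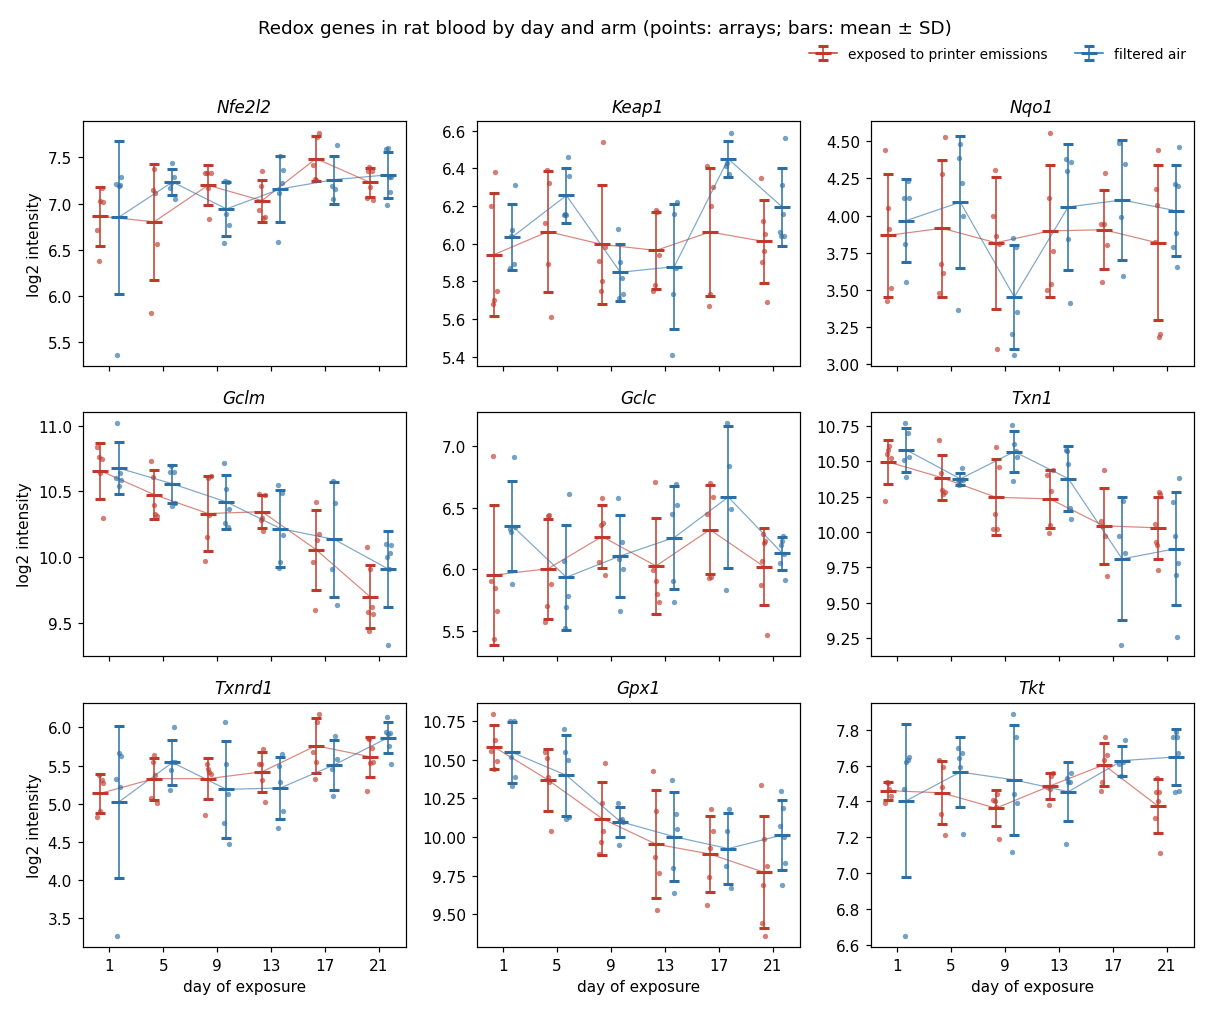
Log2 intensity of the 9 genes on each day of exposure in rats without an implant; points are arrays, bars are group mean ± SD, red is exposed and blue is filtered air. Gclm and Gpx1 declined over the days in both arms, and filtered air day 1 replicate 2 is seen as the low point in Nfe2l2 (5.36), Txnrd1 (3.27) and Tkt (6.65).

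The first question was whether PEPs inhalation changed these genes in blood on a given day. None of the 9 genes passed an adjusted p under 0.05 in any of the 7 exposed against filtered air comparisons (limma with Benjamini-Hochberg adjustment over 34176 probe sets). The share of all probe sets that passed was 0% on days 1, 5, 17 and 21, and 0.00585% on day 9, on day 13 and in the implanted rats of day 21. At an unadjusted p under 0.05 there were 0 of the 9 genes on days 1, 5, 9 and 13, 1 on day 17 (Keap1), 2 on day 21 (Tkt and Gpx1) and 2 in the implanted rats (Gclc and Nqo1), and the share over all probe sets was between 4.88% and 7.7%. None of the 9 genes reached a 1.5-fold change in these comparisons. Of all probe sets 7.41%, 6.92%, 6.7%, 5.92%, 6.17% and 3.34% did so on days 1 to 21, and 5.86% in the implanted rats. At shares this small, 0 of 9 genes cannot be told apart from that background. The 95% intervals of 4 of the 9 genes lay inside a 1.5-fold change on day 17. On days 13 and 21 those of 8 did, and the other comparisons lay between. Interval limits reached -0.89 on day 1, and -1.01 and 1.02 in the implanted rats, on the log2 scale. A 1.5-fold change on single days was therefore not excluded for every gene.

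At day 1 of PEPs exposure, the lowest unadjusted p belonged to Nfe2l2 and Gclc. Nfe2l2 was at 6.71, 6.38, 7.03, 7.17 and 7.02 in exposed rats, against 7.21, 5.36, 7.19, 7.20 and 7.29 in filtered air rats. All 5 exposed arrays lay below 4 of the 5 filtered air arrays and above the remaining one. The weighted difference was -0.28 ± 0.19 on the log2 scale (SE, limma adjusted p = 0.837), it was 0.02 without array weights, and it was -0.38 without filtered air day 1 replicate 2. Gclc was at 5.90, 6.92, 5.43, 5.85 and 5.66 in exposed rats, against 6.33, 6.30, 5.88, 6.91 and 6.34 in filtered air rats. Replicate 2 was the exposed array that lay highest, and the groups overlapped (-0.35 ± 0.27, limma adjusted p = 0.856, and -0.62 without that array). Over the 9 genes, 7 were lower in exposed rats, with a median of -0.08 against 0.013 over all probe sets.

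At day 5 of PEPs exposure, 8 of the 9 genes were lower in exposed rats, with a median of -0.13 (0.009 over all probe sets). Nfe2l2 was at 5.81, 7.15, 7.38, 7.11 and 6.56 in exposed rats and at 7.17, 7.22, 7.44, 7.29 and 7.05 in filtered air rats (-0.25 ± 0.19, limma adjusted p = 0.954). The low exposed value was that of replicate 1, an array of low weight, and without it the difference was -0.14. At day 9 of PEPs exposure, 6 of the 9 genes were higher in exposed rats, with a median of 0.09 (-0.007 over all). Txn1 was at 10.02, 10.13, 10.60, 10.02 and 10.46 in exposed rats, against 10.76, 10.36, 10.62, 10.57 and 10.53 in filtered air rats. Of the exposed arrays 3 lay below every filtered air array (-0.29 ± 0.16, limma adjusted p = 0.759). Tkt on that day was at 7.41, 7.40, 7.37, 7.44 and 7.19 in exposed rats and at 7.12, 7.89, 7.44, 7.76 and 7.39 in filtered air rats (-0.21 ± 0.13, limma adjusted p = 0.768), so that the exposed arrays lay inside the range of the filtered air arrays. The second probe set of Tkt gave -0.07.

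At day 13 of PEPs exposure, 6 of the 9 genes were lower in exposed rats (median -0.03, and -0.009 over all probe sets). The lowest unadjusted p belonged to Nfe2l2 (-0.22 ± 0.17, limma adjusted p = 0.815) and Gclm (0.18 ± 0.15, limma adjusted p = 0.830). At day 17 of PEPs exposure, 6 of the 9 genes were again lower (median -0.02, and -0.001 over all). Keap1 was at 6.41, 5.67, 5.73, 6.20 and 6.30 in exposed rats, against 6.41, 6.43, 6.37 and 6.59 in filtered air rats. The filtered air arrays lay close together, and 4 of the 5 exposed arrays lay below all of them. The difference was -0.34 ± 0.16 (limma adjusted p = 1). Nfe2l2, the partner of Keap1, was at 0.27 ± 0.18 on that day (limma adjusted p = 1).

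At day 21 of PEPs exposure, 8 of the 9 genes were lower in exposed rats, with a median of -0.19 against -0.002 over all probe sets. The lowest, median and highest Tkt values were 7.11, 7.43 and 7.53 in exposed rats, against 7.45, 7.71 and 7.79 in filtered air rats. The groups overlapped at their edges (-0.26 ± 0.10, limma adjusted p = 0.909). The second probe set of Tkt gave -0.2. Gpx1 was at 9.36, 9.75 and 10.34 in exposed rats, against 9.69, 10.04 and 10.30 in filtered air rats (-0.28 ± 0.13, limma adjusted p = 0.969). Its exposed arrays varied more than the filtered air arrays and enclosed all 6 filtered air arrays. Monocyte markers were lower in exposed rats on the same day in 8 of 9 genes (median -0.32), and erythroid markers in 7 of 8 (median -0.19). T cell markers were higher in 13 of 15 (median 0.11) and platelet markers in 9 of 10 (median 0.14). The other lists had medians between -0.05 and 0.01, and 0 genes of any list passed the test. In whole blood, fewer cells of a type and less RNA per cell cannot be told apart, and the part of these cells in the values of Tkt and Gpx1 was not tested.

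In rats with an implant, 6 of the 9 genes were higher after exposure (median 0.10, and 0.003 over all probe sets). Gclc was at 5.70, 6.06, 6.43 and 5.46 in exposed rats, against 6.29, 6.30, 6.97 and 6.21 in filtered air rats. Of the exposed arrays 3 lay below all filtered air arrays (-0.53 ± 0.24, limma adjusted p = 0.917). Nqo1 was at 4.82, 4.40, 4.86 and 4.77 in exposed rats, against 4.05, 4.35, 3.71 and 4.77 in filtered air rats. All exposed values were high for this gene, and 1 filtered air array lay among them (0.51 ± 0.26, limma adjusted p = 0.935). The exposure difference of Nqo1 with an implant was larger by 0.70 ± 0.33 than that without one (limma adjusted p = 0.923), and that of Gpx1 by 0.40 ± 0.20 (limma adjusted p = 0.949). Among the 9 genes 0 passed this test of the difference, as did 0% of all probe sets. At an unadjusted p under 0.05 there was 1 of the 9, against 5.26% of all probe sets.

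Over the mean of the 6 days without an implant, the 9 genes lay between -0.12 and -0.02, with a median of -0.06, and 0 of 9 passed, as did 0% of all probe sets. At an unadjusted p under 0.05 there was 1 of 9 (Tkt), against 6.17% of all probe sets. All 9 were lower in exposed rats, against 49.3% of all probe sets. Their 95% intervals together ran between -0.27 and 0.16, so that every interval lay inside a 1.5-fold change in either direction (0.585 on the log2 scale). Tkt had the largest difference, -0.12 ± 0.05 (interval -0.22 to -0.02, limma adjusted p = 0.753), and its second probe set gave -0.18. Keap1 followed with -0.09 ± 0.06 (limma adjusted p = 0.877). Monocyte markers were lower in 9 of 9 genes over the same mean (median -0.17) and B cell markers in 5 of 5 (median -0.12). Platelet markers were higher in 9 of 10 (median 0.23). The other lists had medians between -0.01 and 0.02, and 0 markers of any list passed. The part of these cells in the values of Tkt was not tested. The exposure difference did not pass as varying between days for any of the 9 genes (limma F test, 0 at an unadjusted p under 0.05 against 7.02% of all probe sets, lowest adjusted p = 0.809 for Nfe2l2 with F = 1.71), and 0% of all probe sets passed.

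**Figure D2:**
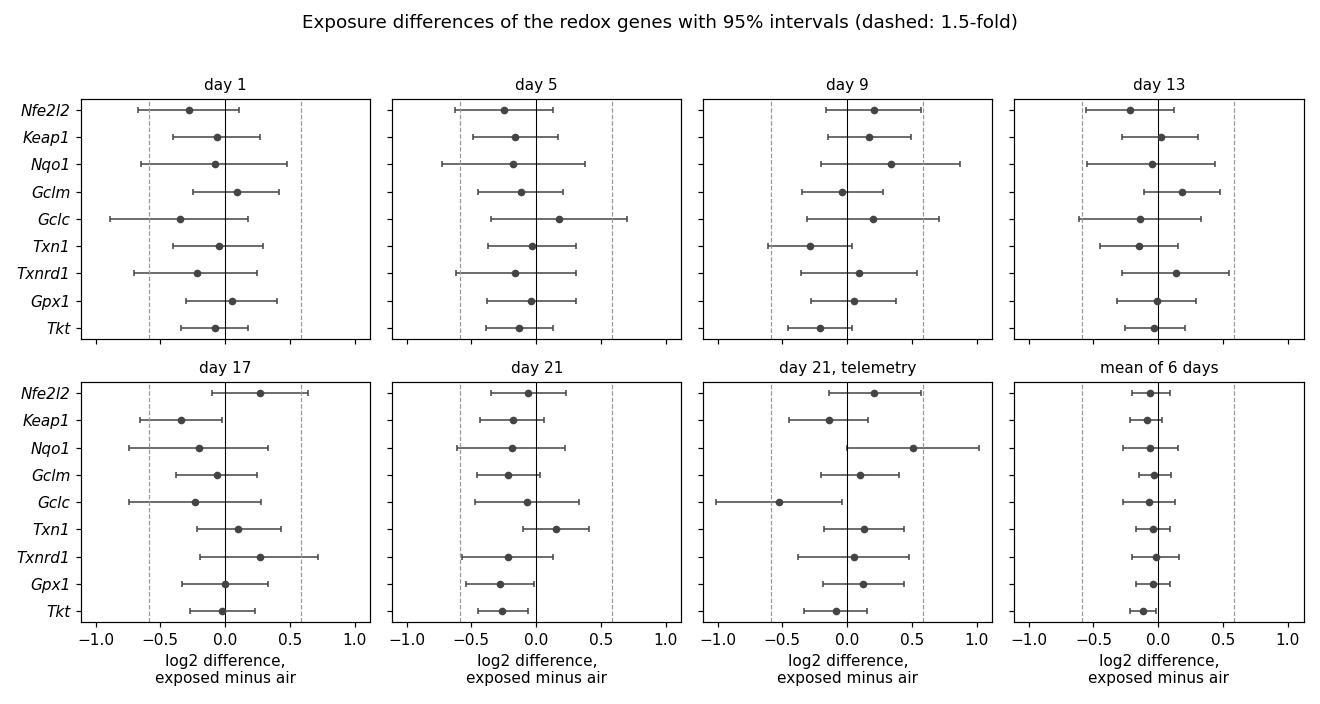
Log2 difference, exposed minus filtered air, of the 9 genes on each day, in implanted rats of day 21, and as the mean of the 6 days; points are limma estimates, bars are 95% intervals and dashed lines are 1.5-fold. Over the mean of the 6 days every interval lies between -0.27 and 0.16, inside the dashed lines.

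The second question was how the genes moved over the 21 days within each arm. Gclm and Gpx1 fell in exposed rats, and Gclm, Txn1 and Gpx1 fell in filtered air rats. On day 1 Gclm was at 10.84, 10.76, 10.64, 10.75 and 10.30 in exposed rats, and on day 21 its lowest, median and highest values were 9.44, 9.60 and 10.08. Every exposed array of day 21 was below every exposed array of day 1. The value of day 21 minus day 1 was -1.02 ± 0.15 (F over the 6 days 12.37, limma adjusted p = 0.000189), with intermediate differences of -0.27, -0.35, -0.38 and -0.67 on days 5, 9, 13 and 17. In filtered air rats Gclm was at 10.60, 11.02, 10.54, 10.64 and 10.59 on day 1 and at 9.33, 10.02 and 10.10 (lowest, median, highest) on day 21, again without overlap. That difference was -0.72 ± 0.15 (F 7.64, limma adjusted p = 0.005).

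Gpx1 had the same direction. Exposed arrays were at 10.56, 10.80, 10.44, 10.63 and 10.49 on day 1 and at 9.36, 9.75 and 10.34 (lowest, median, highest) on day 21. The 2 days did not overlap, and the difference was -0.87 ± 0.15 (F 8.35, limma adjusted p = 0.00204). Filtered air arrays were at 10.75, 10.52, 10.33, 10.75 and 10.39 on day 1 and at 9.69, 10.04 and 10.30 on day 21, with the days just apart. The difference in filtered air was -0.54 ± 0.15 (F 5.12, limma adjusted p = 0.04). It no longer passed when any 1 of 14 arrays was left out (limma adjusted p 0.0507 to 0.109), with the highest p without filtered air day 1 replicate 1, nor without array weights (0.0625).

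Txn1 fell in filtered air, where it was at 10.51, 10.77, 10.39, 10.70 and 10.53 on day 1 and at 9.26, 9.88 and 10.38 (lowest, median, highest) on day 21. The highest array of day 21 was just below the lowest of day 1. The difference was -0.67 ± 0.15 (F 8.20, limma adjusted p = 0.00352). In exposed rats Txn1 differed by -0.47 ± 0.15 (limma adjusted p = 0.148), and the test of a different exposure effect between days gave F = 1.16 for Txn1 (limma adjusted p = 0.879), so that a difference between the arms was not shown. Of the genes that did not pass in either arm, Nfe2l2 was higher on day 21 than on day 1 by 0.41 in exposed rats (limma adjusted p = 0.0842) and by 0.19 in filtered air rats (0.740), and Txnrd1 was higher by 0.52 in both arms (0.223 exposed, 0.235 filtered air). Keap1, Nqo1, Gclc and Tkt differed between day 21 and day 1 by 0.22 or less in size in either arm, and Keap1 in filtered air, which was high on day 17, had F = 3.71 (limma adjusted p = 0.115).

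The exposed arm had 2 of 9 genes passing, both lower on day 21, against 4.71% of all probe sets passing and 1.88% passing and lower on day 21. The filtered air arm had 3 of 9, all 3 lower on day 21, against 1.81% and 0.995%. At an unadjusted p under 0.05 there were 5 of 9 genes in each arm, against 21.1% of all probe sets in exposed and 16.6% in filtered air rats. Over all probe sets 252 passed in both arms, which is 15.7% of the exposed list and 40.8% of the filtered air list, and Gclm and Gpx1 were among them. The arms share no arrays, but days are the age of the rats and the time in the chambers at once, and these cannot be told apart.

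Values of several blood cell lists and of the array background moved with the fall. Of 22 erythroid and reticulocyte markers 11 were measured and 8 tested, and all 8 were lower on day 21 than on day 1 in both arms, with a median of -0.75 in exposed and -0.62 in filtered air rats. Of these, 4 passed in exposed rats (Slc25a37, Tfrc, Trim58 and Epb42) and 1 in filtered air rats (Slc25a37, a mitochondrial iron importer). The mean of the 11 markers ran between 9.56 and 10.17 on day 1 and between 8.90 and 9.35 on day 21 in exposed rats. In filtered air rats it ran between 9.55 and 10.03 on day 1 and between 9.08 and 9.54 on day 21. The lower quartile of the arrays averaged 1.60 on day 1 and 1.45 on day 21 in exposed rats, and 1.57 and 1.44 in filtered air rats. T cell markers moved the other way in exposed rats, where 15 of 15 were higher on day 21 than on day 1 (median 0.54, 5 passing), and their mean ran between 7.41 and 7.84 on day 1 and between 8.05 and 8.31 on day 21. NK and cytotoxic markers were higher in 10 of 10 in exposed rats (median 0.43, 3 passing), at 4.72 to 5.34 on day 1 and 5.07 to 5.88 on day 21. In filtered air rats the medians were 0.14 for T cell and 0.07 for NK and cytotoxic markers, with 0 genes passing. Platelet markers were higher in 10 of 10 in filtered air rats (median 0.69, 0 passing), at 5.45 to 9.42 on day 1 and 9.23 to 9.87 on day 21, and their median was 0.09 in exposed rats. Monocyte markers were higher in 8 of 9 in exposed and 9 of 9 in filtered air rats (median 0.27 in both). B cell markers were higher in 5 of 5 and 4 of 5 (medians 0.23 and 0.19). Neutrophil markers had medians of 0.12 in exposed and -0.2 in filtered air rats, and 0 genes of these 3 lists passed. With the lower quartile as a covariate, Gclm in exposed rats still passed (limma adjusted p = 0.0171), whereas Gpx1 in exposed rats was at -0.79 (adjusted p = 0.126) and in filtered air Txn1, Gclm and Gpx1 were at -0.59, -0.59 and -0.48 (0.0727, 0.132 and 0.193). With only the filtered air groups in the fit, Txn1, Gclm and Gpx1 had limma adjusted p of 0.0594, 0.0659 and 0.0801. The part of these cells in the values of Gclm, Gpx1 and Txn1 was not tested.

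**Figure D3:**
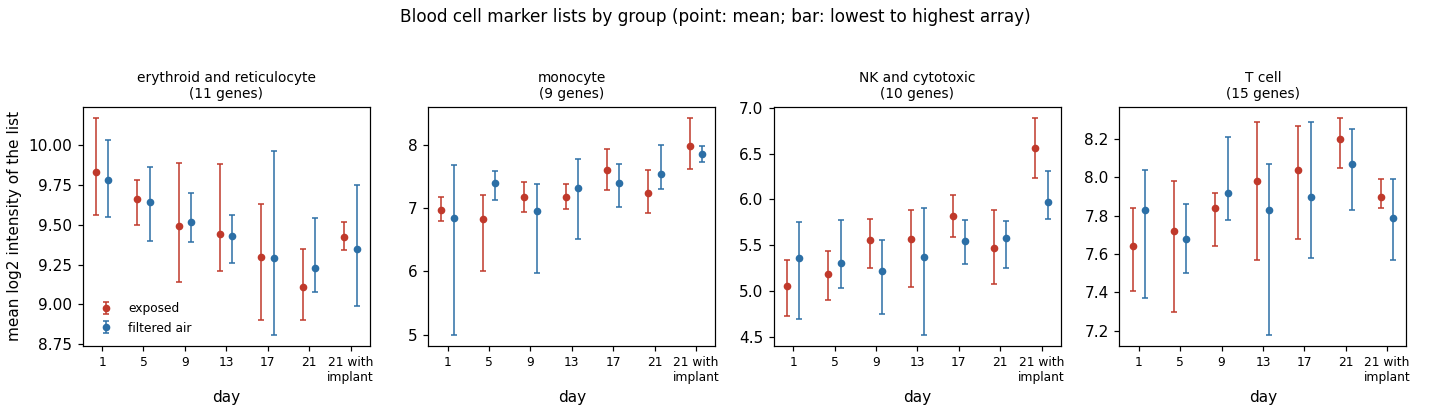
Mean log2 intensity of 4 blood cell marker lists by day, exposed in red and filtered air in blue; points are group means and bars run to the lowest and highest array. The erythroid mean ran between 8.90 and 9.35 on day 21 in exposed and between 9.08 and 9.54 in filtered air rats, below the arrays of day 1 in both arms, and NK and cytotoxic markers were highest in exposed rats with an implant (6.23 to 6.89).

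The third question was how rats with a telemetry implant differed on day 21 from rats without one. Among exposed rats, Nqo1, Gclm and Gpx1 were higher with the implant. Nqo1 was at 4.82, 4.40, 4.86 and 4.77 with the implant, against 3.18, 3.94 and 4.44 (lowest, median, highest) without. A single implanted rat lay inside the range of the others. The difference was 0.89 ± 0.23 (limma adjusted p = 0.0307), the largest of the 9 genes. Gclm was at 10.27, 10.10, 10.11 and 10.46 with the implant, against 9.44, 9.60 and 10.08 without, so that the groups were just apart. The difference was 0.54 ± 0.14 (limma adjusted p = 0.0243).

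Gpx1 was at 10.44, 10.52, 10.31 and 10.28 with the implant, against 9.36, 9.75 and 10.34 without. Only 1 array without the implant reached the implanted rats. The difference was 0.67 ± 0.14 (limma adjusted p = 0.00497). Nfe2l2 was at 7.89, 7.88, 7.53 and 7.67 with the implant, against 7.04, 7.27 and 7.40 without. These groups did not overlap, but the difference of 0.49 ± 0.16 did not pass (limma adjusted p = 0.11). Tkt was at 7.91, 8.01, 7.73 and 7.33 with the implant, against 7.11, 7.43 and 7.53 without (0.37 ± 0.11, limma adjusted p = 0.0628). The values of Txn1 were 0.28 ± 0.14, of Keap1 0.25 ± 0.14, of Txnrd1 0.09 ± 0.19 and of Gclc -0.13 ± 0.22, with limma adjusted p between 0.422 and 0.917.

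Of the 9 genes 3 passed and were higher in exposed rats with the implant, against 1.22% of all probe sets passing and 0.705% passing and higher. The median of the 9 was 0.37, against -0.006 over all probe sets, and 8 of 9 were higher. The exposed rats without an implant enter this comparison, the exposure comparison of day 21 and, as its last day, the exposed course. Their Gclm (9.70) and Gpx1 (9.77) were the lowest of the 14 groups, and their Tkt (7.38) was also low. Results of these comparisons are therefore not independent. None of the 3 calls held without array weights, where Nqo1, Gclm and Gpx1 had limma adjusted p of 0.154, 0.217 and 0.0788 at differences of 0.90, 0.54 and 0.62. Nor did any hold when only the 10 arrays compared entered the fit (0.218, 0.172 and 0.180). Nqo1 did not pass without any 1 of 5 arrays (implanted replicates 1, 3 and 4, and replicates 5 and 6 without an implant; adjusted p 0.0586 to 0.133), and Gclm did not pass without any 1 of 5 (implanted replicates 1 and 4, and replicates 2, 3 and 5 without an implant; 0.0581 to 0.109).

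In filtered air rats 0 of the 9 genes passed for the implant, against 0.468% of all probe sets passing and 0.214% passing and higher. At an unadjusted p under 0.05 there was 1 of the 9, against 9.52% of all probe sets, a share near that background. The direction was upward in 8 of 9 (median 0.22, and -0.006 over all). Txn1 was at 10.55, 9.97, 10.10 and 10.14 with the implant, against 9.26, 9.88 and 10.38 without (0.30 ± 0.14, limma adjusted p = 0.501). Nqo1 was at 4.05, 4.35, 3.71 and 4.77 with the implant, against 3.65, 4.04 and 4.46 without (0.18 ± 0.24, limma adjusted p = 0.89). Gclm was at 10.03, 10.27, 10.28 and 9.86 with the implant, against 9.33, 10.02 and 10.10 without (0.23 ± 0.14, limma adjusted p = 0.66). Gpx1 was at 9.97, 10.39, 10.42 and 10.24 with the implant, against 9.69, 10.04 and 10.30 without (0.26 ± 0.15, limma adjusted p = 0.598). The groups overlapped in all 4 genes. For Gclm the implant difference was larger in exposed rats by 0.32 ± 0.20, which did not pass (limma adjusted p = 0.973). Tkt differed by 0.20 ± 0.11 (limma adjusted p = 0.589), but by -0.01 in its second probe set.

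**Figure D4:**
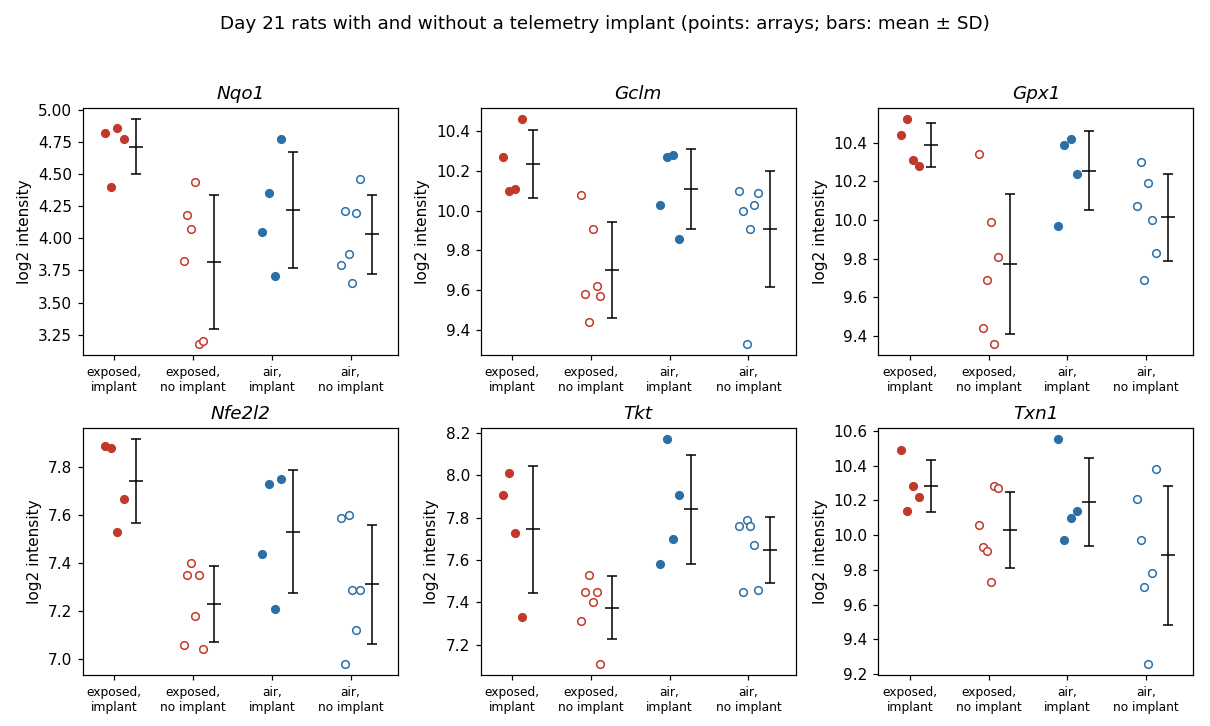
Log2 intensity on day 21 of 6 redox genes in rats with (filled) and without (open) a telemetry implant, exposed in red and filtered air in blue; points are arrays and bars are mean ± SD. With the implant Gclm was higher by 0.54 and Nfe2l2 by 0.49 in exposed rats, and by 0.23 and 0.22 in filtered air rats. The test of a different implant effect between arms did not pass (0.32 and 0.27, limma adjusted p = 0.973 and 0.985).

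Blood cell markers also differed with the implant in exposed rats. NK and cytotoxic markers were higher in 9 of 10 genes (median 1.07, 8 passing), and their mean ran between 6.23 and 6.89 with the implant and between 5.07 and 5.88 without. Monocyte markers were higher in 9 of 9 (median 0.79, 5 passing), at 7.61 to 8.42 with the implant and 6.92 to 7.60 without. T cell markers were lower in 13 of 15 (median -0.37, 3 passing), at 7.84 to 7.99 with and 8.05 to 8.31 without. Neutrophil markers were higher in 11 of 12 (median 0.50, 1 passing), at 6.01 to 6.24 with and 5.18 to 6.28 without. Erythroid markers were higher in 8 of 8 (median 0.39, 0 passing), at 9.34 to 9.52 with and 8.90 to 9.35 without. In filtered air the medians with the implant were 0.49 for NK and cytotoxic, 0.38 for monocyte, -0.33 for T cell, 0.20 for neutrophil and 0.19 for erythroid markers. There 2 T cell markers passed, both lower (Cd3d and Il7r), and 0 of the other lists. Platelet markers were lower in 8 of 10 in exposed rats (median -0.29) and in 7 of 10 in filtered air rats (median -0.05), with 0 passing. The part of these cells in the values of Nqo1, Gclm and Gpx1 was not tested.

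Rats within a group differed together in some of the genes. After group means were subtracted, the 36 pairs of the 9 genes had Pearson r between -0.44 and 0.65 over the 69 arrays, with a median of -0.02. These coefficients are descriptions over arrays that share a normalization and differ in background. Pairs above 0.5 were Nfe2l2 with Txnrd1 (0.65), Txnrd1 with Tkt (0.64), Gclm with Gpx1 (0.63) and Nfe2l2 with Tkt (0.59). Without the 4 arrays of low weight these were 0.45, 0.50, 0.63 and 0.54, so that the first 2 leaned on those arrays and Gclm with Gpx1 did not. The lowest coefficient was that of Nfe2l2 with Gclm (-0.44, or -0.34 without those arrays), a factor and a gene of its target list. Nfe2l2 with Keap1 was at 0.17, and the ligase subunits Gclm and Gclc were at 0.20.

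By the same measure, several genes went with more than 1 blood cell list. Gclm and Gpx1 had r of 0.64 and 0.63 with the mean of the erythroid markers. Gclm also had -0.54 with T cell, -0.50 with monocyte and -0.47 with B cell markers, and Gpx1 had -0.47 with T cell markers. Nfe2l2 had 0.87 with the monocyte markers (0.76 without the 4 arrays), Tkt 0.71 (0.67) and Txnrd1 0.64 (0.41). Nfe2l2 also had 0.50 to 0.56 with the platelet, neutrophil, T cell, B cell and NK and cytotoxic markers, but 0.20 to 0.36 without the 4 arrays. Txnrd1 and Tkt had 0.57 and 0.51 with platelet markers (0.29 each without the 4 arrays). With the lower quartile of the arrays Nfe2l2 had -0.71, Txnrd1 -0.53 and Tkt -0.48 (-0.56, -0.36 and -0.4 without the 4 arrays). Gclm had 0.39 with the lower quartile (0.38 without the 4 arrays). Keap1, Nqo1, Gclc and Txn1 stayed between -0.31 and 0.35 with every list.

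**Figure D5:**
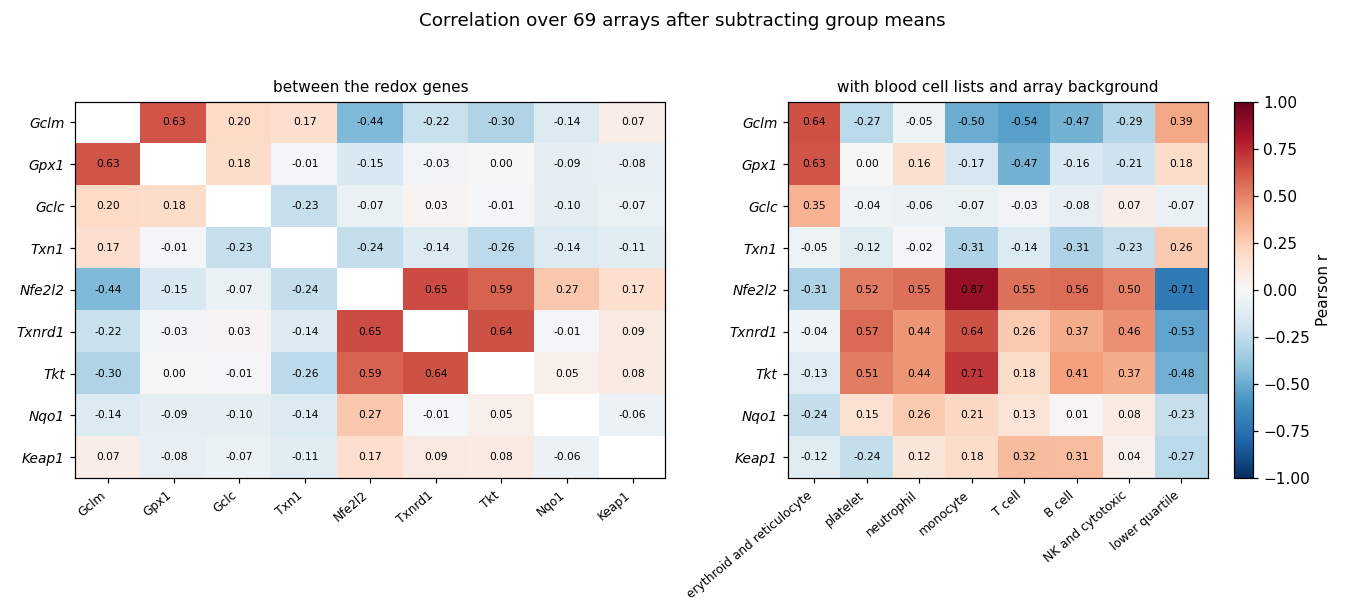
Pearson r over 69 arrays after subtracting group means, between the 9 genes (left) and of each gene with the mean of blood cell marker lists and with the lower quartile of the array (right). Gclm and Gpx1 pair with erythroid markers (0.64 and 0.63), and Nfe2l2, Tkt and Txnrd1 with monocyte markers (0.87, 0.71 and 0.64).

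Among all genes with 1 symbol, those nearest to each of the 9 were named by the highest r over the 69 arrays. Gclm was nearest to Ube2o (0.87), a ubiquitin ligase that acts in reticulocyte maturation, and Fam117a (0.82). Gpx1 was nearest to Aqp1 (0.68), the water channel of red cells, and Cmas (0.67). Nfe2l2 was nearest to Fcgr1a (0.85), the high-affinity IgG receptor of monocytes, which is also on the monocyte list, and Lsp1 (0.84), a leukocyte actin-binding protein. Tkt was nearest to the C-type lectin receptors Clec4a3 and Clec4a1 (both 0.77), and Txnrd1 to Ets2 (0.76) and Atp6v1b2 (0.75). Without the 4 arrays of low weight, these values were 0.73 and 0.76 for Nfe2l2, 0.7 and 0.71 for Tkt, and 0.65 and 0.6 for Txnrd1. Those of Gclm (0.88 and 0.81) and Gpx1 (0.69 and 0.67) changed little. For Txn1 the nearest were the mitochondrial genes Cox4i1 (0.67) and Atp5if1 (0.66). Lower likeness was found for Nqo1 (Ifi47 0.59, Ints11 0.58), Keap1 (Tmem39a 0.56, Tctn1 0.55) and Gclc (Rfesd 0.51, Rpl10-ps13 0.45).

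Other genes of the pathway were taken from a list of 97, of which 67 were measured and 61 tested. In the 7 exposure comparisons, the mean of the days and both tests of a difference, 0 of the 61 passed. Of all probe sets, 0% to 0.00585% passed in these comparisons, so that 0 of 61 genes cannot be told apart from that background. The direction varied between these comparisons. Of the 61 genes 19 were higher and 42 lower in exposed rats on day 21, but 39 were higher and 22 lower on day 17. In implanted rats of day 21, 37 were higher and 24 lower, and over the mean of the days 34 were higher and 27 lower. The shares of all probe sets that were higher in exposed rats were 49.5%, 49.7%, 50.6% and 50.7%, in the same order. Over the days, 4 passed with a higher and 5 with a lower value on day 21 than on day 1 in exposed rats, and 0 and 4 in filtered air rats. Over all probe sets 4.71% passed in exposed rats (1.88% with a lower value) and 1.81% in filtered air rats (0.995%). Txnip, which binds and inhibits thioredoxin, was higher on day 21 than on day 1 in exposed rats (0.72 ± 0.15, limma adjusted p = 0.000748). Taldo1, the transaldolase that works beside transketolase, was at -0.69 ± 0.13 in exposed rats (limma adjusted p = 0.00232) and at -0.51 ± 0.13 in filtered air rats (0.0295). Txndc17, a thioredoxin-like protein, was at -0.48 ± 0.14 in exposed rats (limma adjusted p = 0.00876) and at -0.61 ± 0.14 in filtered air rats (0.0189). Slc3a2, the heavy chain of the cystine transporter, was at -0.59 ± 0.16 in exposed rats (limma adjusted p = 0.0375) and at -0.58 ± 0.16 in filtered air rats (0.00506). The biliverdin reductase Blvrb was at -0.80 ± 0.21 in exposed rats (limma adjusted p = 0.0444) and at -0.75 ± 0.20 in filtered air rats (0.014). These 4 genes with a lower value thus passed in both arms.

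With the implant, 4 of the 61 passed and were higher and 0 passed and were lower in exposed rats, against 1.22% of all probe sets passing and 0.705% passing and higher. Passing or not, 43 were higher and 18 lower, against 48.9% of all probe sets higher. In filtered air rats 0 passed and were higher and 1 passed and was lower, against 0.468% of all probe sets passing. Txndc17 was higher by 0.85 ± 0.13 in exposed rats (limma adjusted p = 4.88e-05). Nqo2, a quinone reductase related to Nqo1, was higher by 1.28 ± 0.26 (limma adjusted p = 0.00341), but its probe set was above the lower quartile on 27 of 69 arrays. Taldo1 was higher by 0.47 ± 0.12 (limma adjusted p = 0.025). In filtered air the gene that fell was the aldo-keto reductase Akr7a3 (-1.02 ± 0.23, limma adjusted p = 0.0175).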

How the data were processed

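The authors deposited log2 probe set intensities of 69 arrays, made per the labels and the methods from Affymetrix Rat Gene ST arrays by robust multi-array average (RMA) in the oligo package (R 3.4 in the submitters' processing notes, which also name limma). RMA corrects background, makes the distributions of the arrays equal and combines the probes of each set by median polish, so a global shift of RNA content is removed. The labels and the methods differ on the RNA isolation kit and the RNA input (400 ng in the labels).

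Of 36685 probe sets, 14824 had 1 symbol, 829 several and 21032 none in the annotation used, and 2509 with a variance under 0.05 were left out, leaving 34176. The values were fitted with limma 3.58.1 in R 4.3.3, with 1 mean for each of the 14 groups, gene-by-gene array weights, empirical Bayes and Benjamini-Hochberg adjustment over all 34176. Contrasts were exposed minus filtered air by day, their mean and their difference between days, the course over 6 days within an arm (F test), and the implant within an arm, 14 comparisons in all. The labels give no batch per array, so none was fitted. All genes of the set were named, with full statistics for those that passed or, where none did, up to 2 by smallest unadjusted p, and up to 3 other pathway genes by smallest p. For the exposed course of the pathway genes these were Txnip, Taldo1 and Txndc17. The members, the lists and the tests were chosen with earlier results of these data known. Alternatives were no array weights, no variance filter, cyclic loess, a replicate block, the lower quartile as a covariate, only the groups compared, the second Tkt probe set and leaving out each array. Leaving out the 4 arrays of low weight was added after seeing the data. The fit was tested on simulated data. On arrays no counts stand behind a value, and the number of arrays limits the precision. Probe set coordinates were not used, and promoters came from RefSeq (GRCr8).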

Additional observations from a re-analysis of the deposited data

Results flagged for a closer look

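A rat far from the others of its group was found 12 times among the 126 combinations of gene and group by Dixon's criterion, which chance alone meets in about 1 of 20 groups. Filtered air day 1 replicate 2, an array of low weight, accounted for 4 of them, with Nfe2l2 at 5.36 (the others at 7.19 to 7.29), Txnrd1 at 3.27 (5.22 to 5.66), Tkt at 6.65 (7.47 to 7.65) and Gclm at 11.02 (10.54 to 10.64). Filtered air day 13 replicate 1, also of low weight, had Tkt at 7.16 (7.51 to 7.56).

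Among exposed rats, Txn1 was at 10.22 in day 1 replicate 1 (10.52 to 10.61), Txnrd1 was at 4.85 in day 9 replicate 1 (5.39 to 5.52), Tkt was at 7.19 in day 9 replicate 5 (7.37 to 7.44), and Gclc was at 6.71 in day 13 replicate 2 (5.73 to 5.99). Among filtered air rats, Tkt was at 7.22 in day 5 replicate 5 (7.59 to 7.70), Gclm was at 9.33 in day 21 replicate 3 (9.91 to 10.10), and Gclc was at 6.97 in day 21 replicate 3 with an implant (6.21 to 6.30).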

How the results depend on the processing

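In the 7 exposure comparisons, their mean, both tests of a difference and the implant in filtered air, 0 of the 9 genes passed under every alternative run. Nfe2l2 on day 1 turned to 0.02 without array weights, and Tkt for the implant in filtered air turned to -0.01 in its second probe set. With the lower quartile of each array as a covariate, 1 gene passed for the exposed course, 0 for the filtered air course and 5 for the implant in exposed rats (Nfe2l2 and Tkt were added), and the medians of the 9 genes were -0.24 for the exposed and -0.11 for the filtered air course. With only the groups compared in the fit, 0 passed for the filtered air course and 0 for the implant in exposed rats, and without array weights 0 passed for the implant in exposed rats. With cyclic loess the medians of the courses were -0.20 (exposed) and -0.09 (filtered air), and Gpx1 in filtered air had a limma adjusted p of 0.0567. Leaving out 1 array at a time, 1 to 3 genes passed for the implant in exposed rats, the median of the filtered air course was -0.10 to 0.09, and the median of the exposure difference with minus without an implant was 0.15 to 0.36. Without the 4 arrays of low weight the same genes passed as with all arrays, 2, 3 and 3 for the exposed course, the filtered air course and the implant in exposed rats. The cause of these shifts was not tested.

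The labels do not pair arrays of the same replicate number, and residuals of arrays with the same number and day had a mean r of 0.017 over 34 pairs, 1 of them over 0.1, so the numbers were not taken as pairs. With the number as a replicate block, 2 genes passed for each course and 2 for the implant in exposed rats; Gpx1 in filtered air was at -0.52 (limma adjusted p = 0.065) and Nqo1 with the implant at 0.88 (0.0749), and no other call among the 9 genes changed. Groups of 4 to 6 arrays and an SD of 0.21 to 0.42 limit what single days can show.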
